A study of Homo sapiens with 8 samples.

Results

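The BCL2 family decides whether the outer membrane of the mitochondrion stays closed. Its members were taken here as 10 genes by their symbol in the platform annotation, of 15550 genes named on the array. They are the survival members BCL2L1 and MCL1, the effectors BAX and BAK1, and the BH3-only members BCL2L11, BID, BIK, BBC3, PMAIP1 and BAD. These genes have 18 probes of 22011, and 15 of those probes, for 8 of the genes, were bright enough to be tested. RNA of A549, a long-established line of human lung adenocarcinoma, was read on an Illumina bead array, on which each probe is an oligonucleotide read as a fluorescence intensity. All cells expressed a hairpin that targets GLP (EHMT1), a histone methyltransferase, so both groups share that knockdown. The groups are 4 arrays after 24 h of 100 nM dexamethasone, a synthetic glucocorticoid, and 4 arrays at 0 h. Before the hormone, the cells grew in phenol red-free medium with charcoal-stripped serum. Whether the hairpin line was a pool or a clone, and what the 0 h cells received, is not given in the sources used here. No array without the hairpin and no 24 h array without hormone was analysed here, so the hormone and the time in culture cannot be told apart.

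BAX and BAK1, once activated, assemble into pores that release cytochrome c into the cytosol, where it starts the caspase cascade. Survival proteins such as BCL-xL (from BCL2L1) and MCL-1 hold the effectors and the BH3-only proteins in check. BH3-only proteins carry stress signals by binding the survival proteins, and some of them also activate the effectors directly. Glucocorticoids are known to kill lymphoid cells, in which BCL2L11 (BIM) takes part, whereas many epithelial cells survive the hormone.

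Promoter sequence is shown for BCL2L1, a survival member that rose, and for BCL2L11, the BH3-only member best known from glucocorticoid-treated lymphoid cells, which did not pass the test. RefSeq windows of 250 bases before to 50 bases after an annotated start were at hand for 8 of the 10 members (build GRCh38.p14). BCL2L1 has 2 such windows and BCL2L11 has 1, printed 5′ to 3′ on the strand of the gene. Capitals mark TATAAA in BCL2L1 and GTAAACA in BCL2L11, with both strands searched.
BCL2L1 chr20:31723914-31724213, minus strand: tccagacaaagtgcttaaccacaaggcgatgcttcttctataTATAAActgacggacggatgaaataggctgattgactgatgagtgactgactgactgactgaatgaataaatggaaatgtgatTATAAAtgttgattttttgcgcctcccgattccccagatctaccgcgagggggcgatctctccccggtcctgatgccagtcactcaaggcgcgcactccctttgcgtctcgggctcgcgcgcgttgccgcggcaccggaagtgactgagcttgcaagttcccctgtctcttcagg
BCL2L1 chr20:31722819-31723118, minus strand: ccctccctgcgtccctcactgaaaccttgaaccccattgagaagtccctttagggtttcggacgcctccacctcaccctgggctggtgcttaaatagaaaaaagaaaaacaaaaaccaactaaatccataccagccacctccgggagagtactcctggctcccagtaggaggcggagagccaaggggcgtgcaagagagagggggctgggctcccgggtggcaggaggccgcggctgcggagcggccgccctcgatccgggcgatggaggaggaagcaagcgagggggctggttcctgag
BCL2L11 chr2:111120664-111120963, plus strand: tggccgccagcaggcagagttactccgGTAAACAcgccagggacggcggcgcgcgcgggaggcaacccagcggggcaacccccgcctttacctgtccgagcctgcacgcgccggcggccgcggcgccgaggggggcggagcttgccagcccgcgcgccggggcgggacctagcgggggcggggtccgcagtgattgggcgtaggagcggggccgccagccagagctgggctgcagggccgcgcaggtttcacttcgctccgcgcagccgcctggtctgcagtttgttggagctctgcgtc
The searched motifs were TGTTCT with its complement AGAACA, the core element of the glucocorticoid receptor, TGTTTAC with its complement GTAAACA, the core of FOXO factors, and TATAAA with its complement TTTATA. MCL1 and BIK were not searched. The receptor half-site was in none of the 14 windows of the 8 members, and 14.83% of 34796 distinct RefSeq windows of this length hold it. The FOXO core was in 1 member, BCL2L11, with its first base 223 bases before the start, and 3.42% of windows hold it. TATAAA was in the first BCL2L1 window 2 times, 208 and 125 bases before the start, and 11.58% of windows hold it. A match describes these letters and is not a site.

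After 24 h of dexamethasone, both survival members rose on both of their probes, MCL1 by 1.79-fold to 2.15-fold and BCL2L1 by 1.44-fold to 1.56-fold. None of the 6 tested death-promoting members passed the test in either direction, on any of their 11 probes. All 4 tested BH3-only members had estimates below 0, between -0.31 and -0.19 on the log2 scale. Without 0 h replicate 3, however, BCL2L11 turned to 0.09. Of all genes, 51.2% had an estimate below 0. The effectors BAX and BAK1 scattered widely between arrays and had estimates near 0 on their brightest probes. The test was limma over 14533 probes with Benjamini-Hochberg adjustment and a threshold of 0.05, and a gene is read on its brightest tested probe. By that test 2 of 8 tested members were called, both higher, where 10.2% of all 10964 tested genes were called, 4.76% higher and 5.39% lower. All 4 survival probes were called higher, where 9.87% of tested probes were called and 4.91% called higher. For 3 of the 8 members, BCL2L1, MCL1 and BID, the 24 h arrays all lay on one side of the 0 h arrays, as they did for 17.4% of all genes.

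The 8 arrays had 13897 to 14742 detected probes at 24 h and 14000 to 14797 at 0 h, with median intensities of 159 to 259 at 24 h and 137 to 273 at 0 h. The headers of the intensity columns begin with 2 different numbers, which were taken here to stand for 2 slides. By these numbers, replicates 1 and 2 lay on slide 1, replicates 3 and 4 on slide 2. TSC22D3, a leucine zipper protein induced by glucocorticoids, rose by 3.19 ± 0.25 (SE, log2, limma adjusted p = 3.65e-05). At 24 h 4 of 4 arrays detected EHMT1, the target of the hairpin, at log2 5.66 to 5.78. At 0 h 1 of 4 did, at 5.11 to 5.55. EHMT1 passed the filter through its 24 h arrays and was not called (limma adjusted p = 0.135). Its 0 h level is mostly background, so the size of a difference is not given. These values say nothing of depletion, since all cells bear the hairpin. NR3C1, the glucocorticoid receptor, differed by -0.06 ± 0.16 (adjusted p = 0.877). Of 10 A549 markers all were tested, 9 were detected on all arrays and 5 were called higher. Of all tested genes, 4.76% were called higher and 5.39% lower. The summed normalized intensity of the A549 markers was 145000 to 154000 at 24 h and 118000 to 131000 at 0 h. Of 7 fibroblast markers 4 were tested, 1 was called higher and 1 lower, COL1A2 and COL3A1 were detected on no array, and the sum was 624 to 880 at 24 h and 592 to 1120 at 0 h. Of 5 leukocyte markers on the array 3 were tested and of 5 endothelial markers 2, with none called. PTPRC and CD3E, and CDH5, VWF and TEK, were detected on no array. Detected on all arrays were 3 of the fibroblast, 3 of the leukocyte and 1 of the endothelial markers. The leukocyte sum was 405 to 636 at 24 h and 587 to 746 at 0 h, and the endothelial sum 220 to 288 at 24 h and 249 to 274 at 0 h. The part of these markers in the results was not tested, and in bulk RNA fewer cells of a type and less RNA per cell cannot be told apart.

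**Figure D1:**
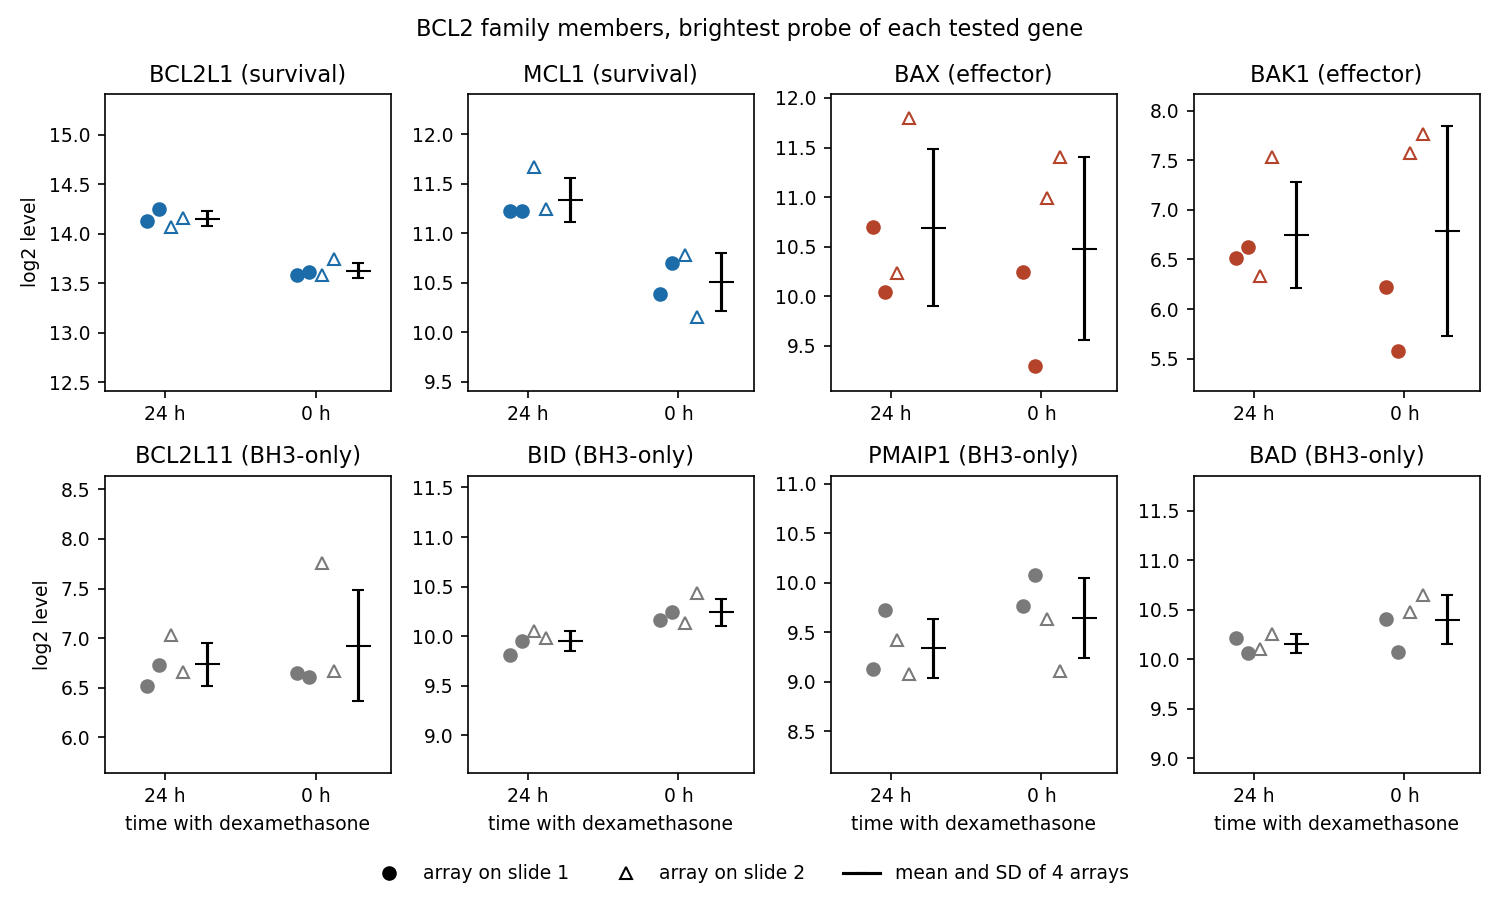
Normalized log2 level of the brightest probe of each tested member, per array, at 24 h (left in each panel) and 0 h (right). Circles are arrays on slide 1, triangles arrays on slide 2, and bars are mean ± SD of 4 arrays. Each panel spans the same log2 range around its own middle. The times do not overlap for BCL2L1, MCL1 and BID, and BAX and BAK1 spread most.

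BCL2L1 encodes BCL-xL, and by splicing also the short, death-promoting BCL-xS. Its brighter probe, ILMN_1654118, read log2 14.13, 14.25, 14.07 and 14.16 over replicates 1 to 4 at 24 h, against 13.58, 13.61, 13.58 and 13.74 at 0 h. Every 24 h array was above every 0 h array, with 0.08 SD at each time. The change was 0.53 ± 0.11 (SE, 95% interval 0.27 to 0.78, limma adjusted p = 0.0153), or 1.44-fold. The dimmer probe, ILMN_1742410, read 10.53, 10.63, 10.21 and 10.37 at 24 h, against 9.91, 9.69, 9.54 and 10.02 at 0 h. Here too the times did not overlap, and the change was 0.64 ± 0.15 (limma adjusted p = 0.0223). The dimmer probe lost its call on leaving out 24 h replicate 1, 2 or 4 or 0 h replicate 2 or 3 (adjusted p = 0.0508 to 0.0705), while the brighter one kept it on leaving out any array (adjusted p = 0.0177 to 0.0498). The annotation assigns both probes to a single RefSeq transcript, and which splice forms they bind is not given in the sources used here.

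MCL1 encodes a short-lived survival protein that binds BIM, NOXA and BAK. Its brighter probe, ILMN_1803988, read log2 11.22, 11.22, 11.67 and 11.24 over replicates 1 to 4 at 24 h, against 10.39, 10.70, 10.78 and 10.15 at 0 h. The lowest 24 h array was above the highest 0 h array by more than the SD at either time. The change was 0.84 ± 0.17 (SE, 95% interval 0.45 to 1.22, limma adjusted p = 0.0122). The other probe, ILMN_1756806, read 11.21, 11.35, 10.99 and 10.95 at 24 h, against 10.24, 10.12, 9.89 and 9.82 at 0 h. Its change was 1.10 ± 0.15 (95% interval 0.78 to 1.43, limma adjusted p = 0.00114), or 2.15-fold, the largest of the 15 tested member probes. It was called within each slide alone, at 1.10 on slide 1 (adjusted p = 0.0264) and 1.11 on slide 2 (adjusted p = 0.0333). By the size of the rise, MCL1 stood at place 352 of 10964 genes and BCL2L1 at place 769. Both MCL1 probes kept their call on leaving out any array (adjusted p = 0.00179 to 0.0392).

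The survival members rose in each of the 4 replicate numbers. For BCL2L1 the change within a replicate number was 0.55, 0.65, 0.50 and 0.42, and for the brighter MCL1 probe it was 0.83, 0.53, 0.89 and 1.09. Of all genes, 19.5% were higher in all 4 numbers. On slide 1 and slide 2 the brighter BCL2L1 probe changed by 0.60 and 0.46 and the brighter MCL1 probe by 0.68 and 0.99. With 2 arrays a time these within-slide values were not called (adjusted p = 0.0958 to 0.176), where 4.58% of genes on slide 1 and 3.79% on slide 2 were.

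**Figure D2:**
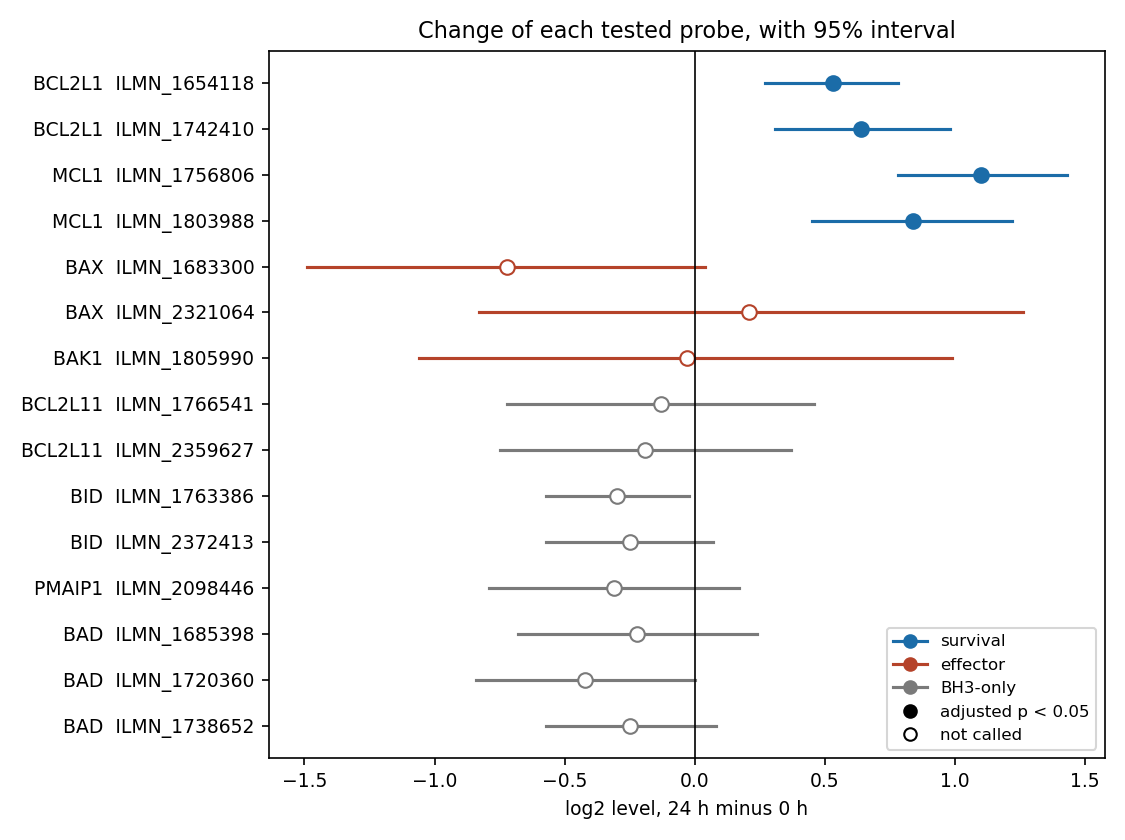
Change of each of the 15 tested member probes, in log2 level at 24 h minus 0 h, as the limma estimate (point) with its 95% interval (line), 4 arrays a time. Filled points passed an adjusted p of 0.05, and colours give the role. The 4 survival probes lie between 0.53 and 1.10, and no interval of theirs reaches 0.

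BAX, which forms the pore in the outer membrane, has 2 tested probes that differed in sign. The brighter one, ILMN_2321064, read log2 10.70, 10.04, 10.23 and 11.80 over replicates 1 to 4 at 24 h, against 10.24, 9.29, 10.99 and 11.40 at 0 h. The times overlapped, and the difference of 0.21 ± 0.47 did not pass (SE, 95% interval -0.83 to 1.26, limma adjusted p = 0.849). The dimmer one, ILMN_1683300, read 8.38, 8.15, 7.58 and 9.05 at 24 h, against 8.76, 8.33, 9.20 and 9.77 at 0 h. It was below its 0 h partner in each of the 4 replicate numbers, yet the times overlapped and -0.72 ± 0.34 did not pass (95% interval -1.49 to 0.04, limma adjusted p = 0.249).

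Within each array, the dimmer BAX probe minus the brighter one was -2.33, -1.88, -2.65 and -2.75 over replicates 1 to 4 at 24 h, against -1.48, -0.95, -1.79 and -1.63 at 0 h. The times did not overlap, and the gap changed by -0.85, -0.93, -0.86 and -1.12 within replicates 1 to 4. This comparison was chosen after the values had been seen, and was then fitted over all 2206 such probe pairs of the array. The change of the gap was -0.94 ± 0.23 (SE, 95% interval -1.46 to -0.42) and did not pass with all pairs adjusted for (limma adjusted p = 0.145), where 0.816% of pairs passed and 5.49% did not overlap. With the replicate number as a block it passed (adjusted p = 0.0168, with 1.54% of pairs called). It measured -0.89 on slide 1 and -0.99 on slide 2. The annotation assigns the 2 BAX probes to different RefSeq transcripts. The 6 other pairs, of BCL2L1, MCL1, BCL2L11, BID and BAD, differed by -0.17 to 0.27 and overlapped (adjusted p = 0.931 to 0.998).

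**Figure D3:**
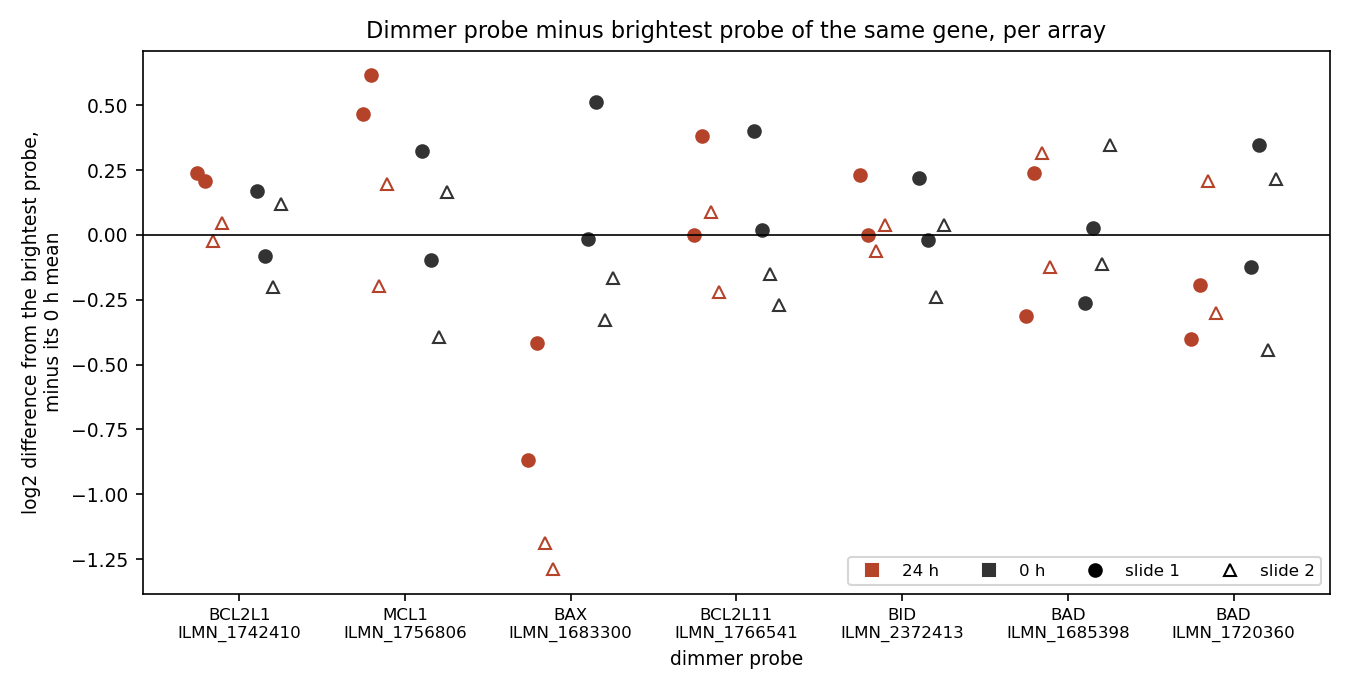
Log2 level of each dimmer member probe minus that of the brightest probe of its gene on the same array, set to 0 at its 0 h mean, for 24 h (red) and 0 h (dark) arrays. Circles are slide 1 and triangles slide 2. The times part for BAX, by -0.94, which did not pass without a block, and overlap for the other 6 pairs.

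BAK1, the other effector, read log2 6.51, 6.63, 6.33 and 7.53 over replicates 1 to 4 at 24 h, against 6.22, 5.58, 7.57 and 7.77 at 0 h. At 0 h the arrays fell into a low pair on slide 1 and a high pair on slide 2. The difference was -0.03 ± 0.46 and did not pass (SE, 95% interval -1.06 to 0.99, limma adjusted p = 0.981), with 0.67 on slide 1 and -0.74 on slide 2. With time in the model, BAK1 was 1.07 ± 0.34 higher on slide 2 than on slide 1 (adjusted p = 0.104) and the brighter BAX probe 1.04 ± 0.37 (adjusted p = 0.131). These slide differences did not pass, where 2.75% of genes did, and the other 13 member probes differed between slides by -0.36 to 0.49.

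Among the 4 tested BH3-only members, BID, which links death receptors to mitochondria, came nearest to a call. Its brighter probe, ILMN_1763386, read log2 9.81, 9.95, 10.05 and 9.98 over replicates 1 to 4 at 24 h, against 10.16, 10.24, 10.13 and 10.43 at 0 h. The times did not overlap, as for 9.1% of all genes that were lower at 24 h and 8.26% that were higher. The difference of -0.30 ± 0.12 (SE, 95% interval -0.57 to -0.02) did not pass (limma adjusted p = 0.183). A second probe differed by -0.25 ± 0.14 (adjusted p = 0.365), and the other was detected on no array.

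PMAIP1, or NOXA, a BH3-only protein that binds MCL-1, read log2 9.13, 9.72, 9.42 and 9.08 at 24 h, against 9.76, 10.08, 9.63 and 9.11 at 0 h. The difference within replicates 1 to 4 was -0.63, -0.36, -0.21 and -0.03, but the times overlapped and the difference of -0.31 ± 0.22 did not pass (limma adjusted p = 0.471). BAD, which growth factor kinases inactivate by phosphorylation, read 10.22, 10.06, 10.10 and 10.26 at 24 h, against 10.41, 10.07, 10.48 and 10.65 at 0 h on its brightest probe. Its estimates were -0.25, -0.22 and -0.42 over 3 probes, and none passed (limma adjusted p = 0.224 to 0.617). BID, PMAIP1 and BAD had differences below 0 in all 4 replicate numbers on their brightest probes, as had 21.7% of all genes.

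BCL2L11, or BIM, read log2 6.52, 6.73, 7.03 and 6.66 over replicates 1 to 4 at 24 h, against 6.65, 6.61, 7.76 and 6.67 at 0 h on its brighter probe. The times overlapped, and the single high array was 0 h replicate 3, without which the difference was 0.09. The difference was -0.19 ± 0.25 (SE, 95% interval -0.75 to 0.37, limma adjusted p = 0.732), and -0.13 ± 0.27 on a probe annotated to another transcript (95% interval -0.72 to 0.46, adjusted p = 0.841). Without 0 h replicate 3 that probe was at 0.10. Both 95% intervals include 0 h replicate 3, so they set no firm upper limit on a rise of BCL2L11. The dimmer probe was also near background, at 5.65 to 6.33 at 24 h and 5.61 to 6.82 at 0 h (detection p up to 0.0367).

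BBC3, or PUMA, and BIK were not tested. BBC3 was detected on no array (detection p from 0.0548 to 0.648), with log2 levels of 4.80 to 5.44 at 24 h and 4.67 to 5.36 at 0 h that stand for background. At 24 h 1 of 4 arrays detected BIK, with log2 levels of 5.07 to 5.43, against 2 of 4 at 0 h, with 5.11 to 5.89. Neither has a direction in these data.

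**Figure D4:**
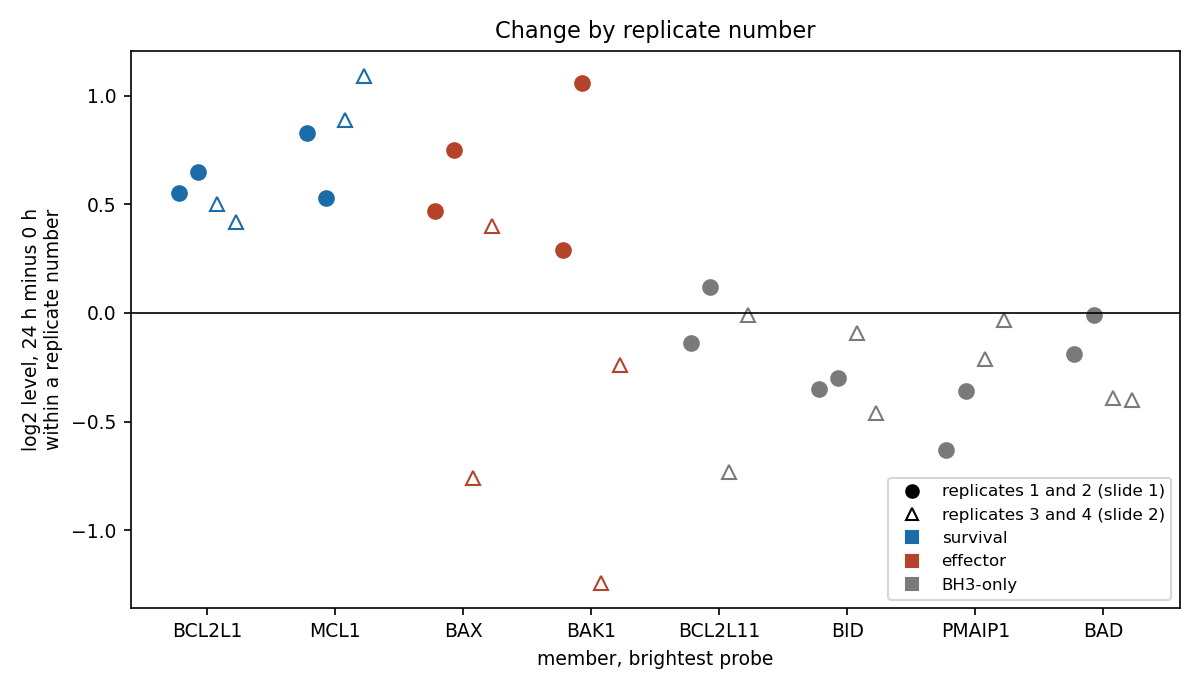
Change of the brightest probe of each tested member within each replicate number, in log2 level at 24 h minus 0 h. Filled circles are replicates 1 and 2 on slide 1, open triangles replicates 3 and 4 on slide 2. BCL2L1 and MCL1 lie above 0 in all 4, BID, PMAIP1 and BAD below 0 in all 4, and BAX and BAK1 on both sides.

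By role, the median change over tested genes was 0.68 for the 2 survival members, 0.09 for the 2 effectors and -0.27 for the 4 BH3-only members, beside -0.008 over all tested genes. Within replicates 1 to 4 the survival median was 0.69, 0.59, 0.69 and 0.75, and the BH3-only median -0.27, -0.15, -0.30 and -0.21. The effector median was 0.38, 0.90, -1.0 and 0.08, so that it turned sign between replicates. These medians are a description, with no test, and 51.2% of all genes had an estimate below 0. They cover the listed members alone, and do not stand for every gene of a role. Outside the list, the survival genes BCL2 and BCL2A1 were at -0.35 and -0.27, and BCL2L2 at 0.18. HRK, a BH3-only gene outside the list, was at 0.86, while BMF, another, was partly background at 24 h. None of these was called.

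Of 13 other genes of the family or named after it, 11 were tested and limma called none, with 3 at an unadjusted p under 0.05, where 10.2% of all genes were called. With the replicate block 2 were lower, where that fit called 17.2% of all genes in either direction. Of 20 alternatives, 12 called 1 or 2 of these genes, always lower, among them the authors' log2 values. BCL2L12, a distant relative, differed by -0.71 ± 0.20 (SE, adjusted p = 0.0545, and 0.0177 with the block). BMF, a BH3-only gene, read 5.45 to 6.84 at 24 h and 5.91 to 7.25 at 0 h (adjusted p = 0.116, and 0.0312 with the block). It passed the filter through its 0 h arrays, with 2 of 4 detected at 24 h against 4 of 4 at 0 h, so its 24 h level is partly background and the size of a difference is not given. HRK, another BH3-only gene, differed by 0.86 ± 0.37 (adjusted p = 0.191). The survival genes BCL2 at -0.35 ± 0.31, BCL2A1 at -0.27 ± 0.15 and BCL2L2 at 0.18 did not pass (adjusted p = 0.324 to 0.704). The median of these genes was 0.03.

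Upstream of the family, FOXO1 and FOXO3 rose, 2 of 11 tested transcription factors of the family and their regulators, and none fell, where 4.76% of all genes were called higher. FOXO factors are known to activate BCL2L11. FOXO1 was 10.25 ± 0.17 at 24 h and 9.21 ± 0.33 at 0 h (SD, n = 4 each, change 1.04, limma adjusted p = 0.00408). FOXO3 was 12.49 ± 0.17 at 24 h and 11.75 ± 0.36 at 0 h (change 0.74, limma adjusted p = 0.0295), and lost its call on leaving out 24 h replicate 1, 2 or 3 or 0 h replicate 2 (adjusted p = 0.0663 to 0.0879). BCL2L11, whose promoter window above holds the FOXO core, did not pass the test. The list median was 0.13.

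Downstream, limma called none of 13 tested genes of the mitochondrial pathway and caspases (2 at an unadjusted p under 0.05, median 0), where 10.2% of all genes were called. With the block, which called 17.2% of all genes, CASP9, the caspase started by cytochrome c, was higher at 0.49 ± 0.15 (adjusted p = 0.0658, and 0.0178 with the block) and so was ENDOG, a mitochondrial nuclease, at 0.43 ± 0.15 (adjusted p = 0.115, and 0.0263). CASP2 was lower with the block at -0.42 (adjusted p = 0.296, and 0.0417). Of 7 listed inhibitor of apoptosis genes, 5 had a probe and 4 were tested. Of those 4, 2 were lower and none higher, with a median of -0.51, where 5.39% of all genes were called lower. One of them is BIRC7, which passed the filter only through its 0 h arrays, so count and median rest in part on that filter. Among probes detected on all 8 arrays, 1 inhibitor was lower and none higher. The count was 1 in 12 of 20 alternatives. BIRC5, or survivin, which also acts in mitosis, was 10.69 ± 0.25 at 24 h and 11.95 ± 0.30 at 0 h (SD, n = 4 each, change -1.25, limma adjusted p = 0.00176). BIRC7 passed the filter on dim probes only through its 0 h arrays, detected on 1 of 4 arrays at 24 h against 4 of 4 at 0 h, with log2 levels of 5.12 to 5.83 at 24 h and 5.88 to 6.76 at 0 h, so that its 24 h level is mostly background. Its call (adjusted p = 0.0348) was lost on leaving out any of 6 arrays, all but 24 h replicate 3 and 0 h replicate 1 (adjusted p = 0.0505 to 0.101). It was also lost with no filter (adjusted p = 0.0518), with no background correction and with the authors' log2 values. The fitted change moved to -0.35 with no background correction (adjusted p = 0.0786) and -0.56 with the authors' values (adjusted p = 0.0725), against -0.82.

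Limma called none of 10 tested genes of the death receptor branch (2 at an unadjusted p under 0.05, median 0.08), where 10.2% of all genes were called. Of 19 tested regulators of the member proteins none was called either (3 at that level, median -0.03), and PIM3, a kinase that phosphorylates BAD, was higher with the block, which called 17.2% of all genes, at 0.85 ± 0.26 (adjusted p = 0.0663, and 0.00686). In the ubiquitin enzymes that set MCL-1 turnover, HUWE1 differed by 0.30, FBXW7 by 0.05 and the deubiquitinase USP9X by 0.57, and none passed (adjusted p = 0.186 to 0.899). Protein levels and phosphorylation were not measured.

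**Figure D5:**
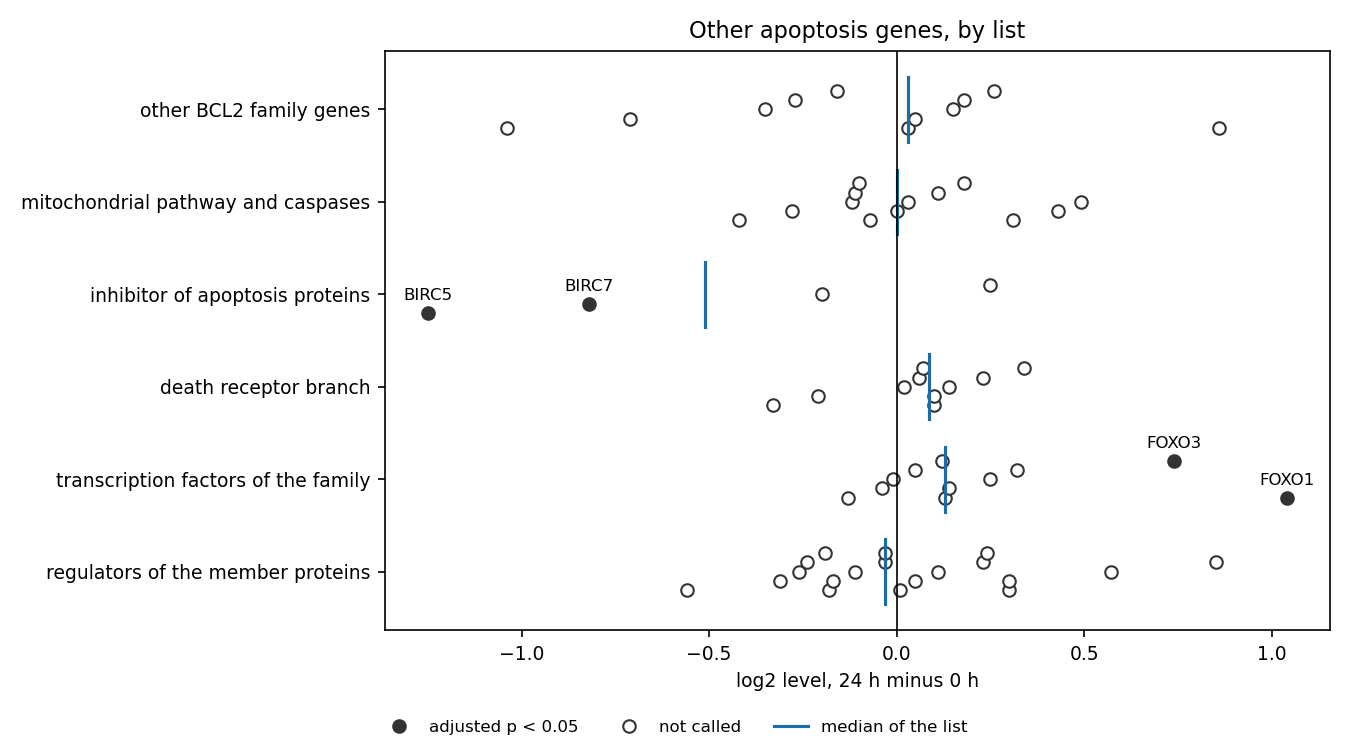
Change of each tested gene of 6 lists of other apoptosis genes, in log2 level at 24 h minus 0 h, on its brightest probe. Filled points passed an adjusted p of 0.05 and are named, and the blue line is the median of a list. Of 68 tested genes, 4 were called, FOXO1 and FOXO3 higher and BIRC5 and BIRC7 lower, where 10.2% of all tested genes were called. BIRC7 passed the filter only through its 0 h arrays.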

How the data were processed

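Total RNA of 8 A549 samples was measured on a bead array, 4 at 24 h and 4 at 0 h. Per the file headers, the deposited table gives for each of 25204 rows and each array a linear mean intensity, a detection p-value and a number of beads. Its 8 columns headed as standard errors were not used. The authors' table holds log2 values of 22011 of these rows. The submitters' processing notes list limma, and how those values were made is not given in the sources used here.

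Intensities were corrected with nec of limma 3.58.1 (R 4.3.3; offset 16, background from detection p-values), and the 22011 probes were then quantile normalized, as log2. Probes with a detection p under 0.05 on at least 4 of 8 arrays were tested with lmFit and eBayes, two-sided. Symbols were updated through Entrez identifiers to RefSeq (GRCh38.p14). Differences carry the SE of that fit, levels mean ± SD. The number of arrays limits the precision. The scripts were tested on simulated data. Alternatives changed the background correction, the scaling, the filter, the blocks, the array weights and the arrays used, and the authors' log2 values replaced the normalized ones. The comparisons between slides and between probes of a gene were added after seeing the data.

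Named are all member probes, up to 4 called genes per list by smallest p, genes given as values, and EHMT1, NR3C1 and TSC22D3. One further list of genes is not reported here. The members and lists were chosen with earlier results of these data known. Same-numbered samples deviated together (r = 0.37 to 0.46 for the 4 pairs over tested probes), so the numbers were taken to pair the samples and the blocked value is given where it changes a call. Nothing says whether replicates were separate cultures, so p-values measure only the spread between these samples.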

Additional observations from a re-analysis of the deposited data

Results flagged for a closer look

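A test of the gap between the most distant array of a group of 4 and its neighbour was applied to 46 groups, 2 for each member probe and for each called gene of the lists or TSC22D3, and chance gives about 5% of such groups. It marked 4 values. The brighter BCL2L1 probe read log2 13.74 in 0 h replicate 4, above the other 0 h arrays at 13.58 to 13.61 and below every 24 h array. The brighter MCL1 probe read 11.67 in 24 h replicate 3, above the other 24 h arrays at 11.22 to 11.24. Without that array the MCL1 change was 0.73 and stayed called. The brighter BCL2L11 probe read 7.76 in 0 h replicate 3, above the others at 6.61 to 6.67, and without that array its difference was 0.09. TSC22D3 read 9.87 in 0 h replicate 4, below its other 0 h arrays.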

How the results depend on the processing

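BCL2L1 and MCL1 stayed higher and called on their brighter probes under 19 of 21 alternatives, the others being the slides taken alone, and none of 220 alternative fits of the 11 death member probes passed. The exact permutation test over 70 splits cannot go below p = 0.0286, and reached it for all 4 survival probes and for BID (-0.30), with no adjustment over probes. On slide 1 alone and slide 2 alone no member was called on its brightest probe (0 and 0), with BCL2L1 at 0.60 and 0.46 and MCL1 at 0.68 and 0.99. All genes called numbered 1890 with the replicate block, 502 on slide 1 and 416 on slide 2, and 770 to 1031 with 1 array left out, against 1113. List genes called numbered 10 with the replicate block, 7 with the slide as a block, 7 with array weights and 2 to 8 with 1 array left out (2 without 24 h replicate 1 or 2, 8 without 0 h replicate 4), against 4. BAX turned to -0.18 on slide 2 and ran from -0.18 to 0.52 with 1 array left out. BAK1 turned to 0.67 on slide 1 and 0.40 with array weights, and ran from -0.43 to 0.30. BCL2L11 ran from -0.29 to 0.09 on its brighter and -0.30 to 0.10 on its dimmer probe. The BAX probe gap of -0.94 passed with the replicate block and with the slide as a block (-0.94 each, adjusted p = 0.0168 and 0.0267) and ran from -1.11 to -0.77 with 1 array left out. Gaps of pairs that had not passed turned sign for BCL2L11 (-0.02 on slide 1, -0.05 to 0.19 with 1 array left out), BID (-0.03 to 0.12) and BAD (-0.02 and 0.06 on slide 2, -0.01 with array weights, -0.07 to 0.15). The cause of these turns was not tested. Apart from the calls printed with the block in the report, the replicate block changed no other call of a named gene. Probes near background (BBC3, BIK, BIRC7, BMF and the dimmer BCL2L11 probe) have little room to fall. BAK1 was also near background in 0 h replicate 2.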
